A study of Mus musculus with 6 samples.

Results

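RBPJ is the DNA-binding protein through which all 4 Notch receptors reach their target genes, and the 10 genes described here are Rbpj, the 3 Mastermind coactivators (Maml1, Maml2 and Maml3) that join it, and 6 genes of the Hes, Hey and Nrarp type listed as Notch output (Hes1, Hes6, Hey1, Hey2, Heyl and Nrarp). They were taken by name from the 31053 genes counted, and all 10 were listed and passed the expression minimum (a mean of 10 DESeq2-normalized counts), as did 11633 genes in all. RNA was sequenced from quiescent muscle stem cells (qMuSCs) sorted from resting hindlimb muscles of mice 3 to 4 months old, with a library for each of 3 WT mice, c124, c129, c130, and for each of 3 cD2KO mice, fl125, fl126, fl128. Values of single mice are always given in that order, WT first. The WT genotype is Pax7nGFP/+;Pax7+/+;Dio2Fl/Fl, and the cD2KO genotype is Pax7nGFP/+;Pax7-CreERT2/+;Dio2Fl/Fl. Dio2 encodes the type 2 deiodinase (D2), which makes active thyroid hormone inside cells. Mice of both groups carried the floxed Dio2 alleles and the GFP reporter driven by Pax7 and were given tamoxifen, and only the cD2KO mice carried the recombinase, which is tied to Pax7 and so acts in cells that express it. The effects of the Cre allele and of the loss of Dio2 cannot be told apart.

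When a ligand binds a Notch receptor, the receptor is cleaved and its intracellular domain moves to the nucleus, where it binds RBPJ and a Mastermind protein and turns on transcription. In the absence of that domain RBPJ holds the same genes down with corepressors. The Hes and Hey genes encode basic helix-loop-helix repressors and are the classic readout of the pathway, and in muscle stem cells Notch signaling through RBPJ, with Hey1 and Heyl among its outputs, is known for keeping the cells quiescent and undifferentiated.

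Total counts ran from 2184073 to 3897787 per mouse, so that the upper limit allowed by a count of 0, which is 3 counts and covers counting error only, stood for 0.768 to 1.36 CPM (counts scaled to a common library total, with the library sizes scaled by TMM). Dio2 had 21, 5 and 10 counts in WT and 15, 5 and 1 in cD2KO mice, and its CPM did not separate the groups (exact permutation test, two-sided, p = 0.7). The smallest p that 3 against 3 mice allow in this test is 0.1. The counts cover the whole gene, and the floxed part was not looked at alone. Dio2 was highest, at 6.80 CPM, in the library labelled fl125, which also had the lowest correlation with its nearest library of the same group (r = 0.902 across genes, against 0.924 to 0.948 in the other mice), so results are also given without it. Markers of muscle stem cells were present in each mouse, with Pax7 between 211 and 688 CPM and a sum over 11 markers of 1624 to 2057 CPM in WT and 1771 to 2951 CPM in cD2KO mice. Markers of other cells were present too. The 14 immune markers summed to 3808 to 7031 CPM in WT and 218 to 2292 CPM in cD2KO mice, the 11 mural markers to 5719 to 9672 and 11651 to 17237 CPM, the 12 endothelial markers to 304 to 431 and 251 to 314 CPM, the 8 fibroadipogenic markers to 3753 to 6194 and 2275 to 5016 CPM, the 6 Schwann cell markers to 4494 to 6877 and 6188 to 7090 CPM and the 6 myofiber markers to 1353 to 3139 and 2406 to 4742 CPM. No marker on these lists was at 0 in all 6 mice. In such bulk RNA, fewer cells of a type and less RNA per cell cannot be told apart. The 6 mice were of 1 sex by their RNA, with Ddx3y, a gene of the Y chromosome, between 93.9 and 154 CPM and 1 count of Xist in all.

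Rbpj was the one gene of the 10 that differed between the groups at an unadjusted p under 0.05, and it was lower in the RNA of the cells sorted from cD2KO mice. The stretch before its first start in the RefSeq table (GRCm38.p6, plus strand, chr5:53590096-53590355) is shown because its own product recognizes the letters TGGGAA, and that before the start of Hey2 (minus strand, chr10:30842774-30843033) because Hey2 was the only gene of those found whose window held the longer form GTGGGAA. The Rbpj start used, 53590346, lies inside the annotated gene, which begins at 53466152, so the stretch is not that upstream of the whole gene. Each is given 5′ to 3′ with the 250 bases before the start and 10 from it, and capitals mark TGGGAA or its reverse complement TTCCCA.
Rbpj: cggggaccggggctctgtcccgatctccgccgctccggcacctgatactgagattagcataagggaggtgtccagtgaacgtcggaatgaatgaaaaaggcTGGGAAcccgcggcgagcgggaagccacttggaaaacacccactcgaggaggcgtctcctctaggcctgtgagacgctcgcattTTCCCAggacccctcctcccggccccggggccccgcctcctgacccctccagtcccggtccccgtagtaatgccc
Hey2: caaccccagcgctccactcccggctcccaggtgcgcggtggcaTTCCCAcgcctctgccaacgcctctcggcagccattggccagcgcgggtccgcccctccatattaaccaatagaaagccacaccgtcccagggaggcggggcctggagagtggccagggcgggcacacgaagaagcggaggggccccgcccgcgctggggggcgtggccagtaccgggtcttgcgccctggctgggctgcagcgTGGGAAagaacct
In Rbpj the marked letters begin 149 and 65 bases before the start, and in Hey2 207 and 3 bases before it. In both places the Hey2 letters extend to GTGGGAA or its reverse complement. Over windows of 250 bases before to 50 after a start, TGGGAA stood on either strand in 25.6% of 32851 promoters and GTGGGAA, which contains it, in 6.38%. The table held 10 windows for 7 of the 10 genes, of which 5 windows, of Rbpj (2 that overlap and share a match), Maml2, Maml3 and Hey2, had TGGGAA. Hes1, Hey1 and Heyl had no entry. The half-site AGGTCA of thyroid hormone receptors was in 2 of the 10 windows (1 each of Maml2 and Hes6) and in 16.3% of all windows. The E-box CACGTG, which reads the same on both strands, was in the window of Nrarp and in 7.15% of all windows. These matches describe letters and are not sites of binding.

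Rbpj (ENSMUSG00000039191, mm10, chromosome 5 from 53466152 to 53657362, plus strand) has 19 separate exon blocks, none of which overlaps an exon of another gene. The annotation also holds 2 processed pseudogenes of Rbpj, on chromosomes 4 and 6, so a part of its reads could map to more than 1 place and its counts are uncertain to that extent. Its level was 67.6, 64.8 and 61.6 CPM in WT (264, 176 and 178 counts) and 33.5, 44.5 and 44.6 CPM in cD2KO (74, 130 and 142 counts). All cD2KO mice lay below all WT mice, the library labelled fl125 lowest. The WT mean was 64.7 ± 2.98 CPM and the cD2KO mean 40.9 ± 6.37 CPM (± SD, n = 3 per group). Its log2 fold change was -0.66 (SE 0.22, 95% interval -1.13 to -0.19), with an adjusted p = 0.220 in the quasi-likelihood test of edgeR and an unadjusted p of 0.00926. Expressed as a ratio, the interval ran from 0.457 to 0.876 of the WT level. Among all genes tested, 6.62% were lower and 12.0% differed in either direction at an unadjusted p under 0.05, and 488 genes had a smaller p than Rbpj. At an adjusted p under 0.1, 0.774% of all genes passed and none of the 10. When single mice were left out, the log2 fold change of Rbpj stayed between -0.73 and -0.50 and its unadjusted p between 0.0127 and 0.0385. Without the library labelled fl125 it was -0.50, with an adjusted p = 0.286 in edgeR over the 5 other mice. The WT mice varied less than counting alone would give on average, with a coefficient of variation of 4.61% against 6.97%, and the cD2KO mice more, with 15.6% against 9.31%. Immune markers moved with Rbpj. Of the 14 on the list, 12 had all cD2KO mice below all WT mice, where 18.1% of all genes tested did not overlap in either direction. At an unadjusted p under 0.05, 4 of the 14 passed, all lower, where 6.62% of all genes tested were lower. The library labelled fl125 had the lowest immune sum, 218 CPM. Within WT, c129 had the highest immune sum, 7031 CPM, and not the highest Rbpj. The part of immune cell RNA in the Rbpj result was not tested.

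**Figure D1:**
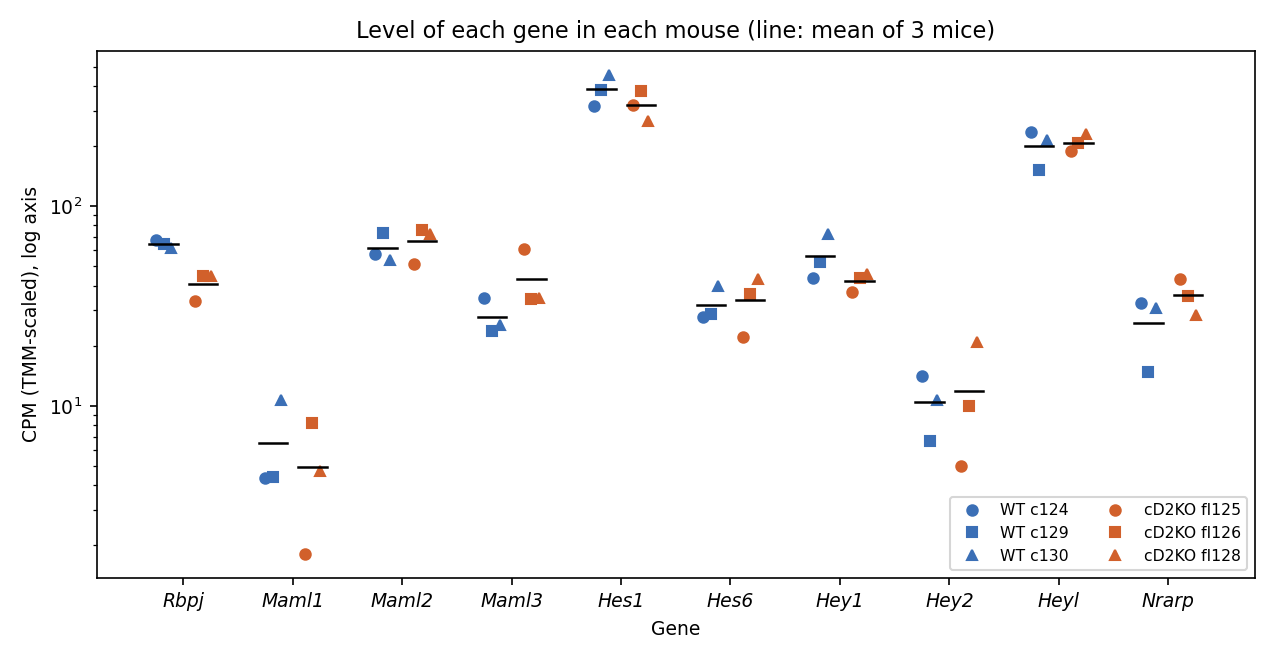
CPM of the 10 genes (log axis, TMM-scaled) in the 3 WT mice (blue) and the 3 cD2KO mice (orange), each point being a mouse and each line the mean of a group. Rbpj is the only gene in which the points of the groups do not overlap, with 61.6 to 67.6 CPM in WT and 33.5 to 44.6 CPM in cD2KO, and Hes1 and Heyl are the highest.

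Mastermind proteins bridge the Notch domain and RBPJ to acetyltransferases, and none of the 3 genes reached an unadjusted p under 0.05, a level at which 5.34% of all genes tested were higher in cD2KO. Maml3 (ENSMUSG00000061143, chromosome 3 from 51685907 to 52105076) came closest. It was at 34.6, 23.6 and 25.3 CPM in WT and at 60.7, 34.2 and 34.6 CPM in cD2KO. The library labelled fl125 stood high, and fl126 lay just under c124, so the groups overlapped. A WT mean of 27.8 ± 5.91 CPM and a cD2KO mean of 43.2 ± 15.2 CPM (± SD, n = 3 per group) gave a log2 fold change of 0.62 (SE 0.30, 95% interval -0.02 to 1.25, edgeR adjusted p = 0.435, unadjusted p of 0.0550). It was 0.34 without the library labelled fl125, with an unadjusted p of 0.258 in edgeR, and between 0.53 and 0.81 without each of the other mice. In 3 of these 6 fits, those without c124, fl126 or fl128, the unadjusted p was under 0.05.

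Maml2 (ENSMUSG00000031925, chromosome 9 from 13297957 to 13709388) was at 57.6, 73.7 and 53.7 CPM in WT and 51.2, 76.0 and 72.3 CPM in cD2KO mice. The groups covered nearly the same range, and the log2 fold change was 0.11 (SE 0.23, 95% interval -0.38 to 0.60, edgeR adjusted p = 0.905). Maml1 (ENSMUSG00000050567, chromosome 11 from 50255634 to 50292311) was the lowest of the 10 genes, with 17, 12 and 31 counts in WT and 4, 24 and 15 in cD2KO mice. Its log2 fold change of -0.37 had a 95% interval from -1.77 to 1.02, which includes both a lowering to 0.294 and a rise to 2.03 of the WT level. The coefficient of variation of Maml1 was 56.4% in WT and 65.2% in cD2KO mice, where counting alone would give 22.4% and 26.4%. It turned to 0.18 without c130 and to 0.03 without the library labelled fl125. Maml1 shares 135 exon bases with Gm26542 on the opposite strand, which had at most 2 counts in a mouse.

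By share of the 3 Mastermind genes' CPM, Maml2 held 45.0% to 72.5% and Maml3 23.2% to 53.4% per mouse. The library labelled fl125 was the only one in which Maml3 exceeded Maml2, at a ratio of 1.19, against 0.320 to 0.600 in the other mice. The ratio of Maml2 to Rbpj was 0.852, 1.14 and 0.871 in the WT mice and 1.53, 1.71 and 1.62 in the cD2KO mice. This ratio, formed after the values were seen and not tested, was higher in all cD2KO than in all WT mice, and it contains the Rbpj values described above.

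Hes1 (ENSMUSG00000022528, chromosome 16 from 30064384 to 30067796), a repressor that holds back differentiation in many stem cells, was the highest of the 10 genes. It was at 317, 379.7 and 455 CPM in WT and at 319, 376 and 266 CPM in cD2KO. The lowest mouse was the cD2KO mouse fl128 and the highest the WT mouse c130, with the others of both groups between them. A WT mean of 384 ± 68.9 CPM and a cD2KO mean of 320.4 ± 55.3 CPM (± SD, n = 3 per group) gave a log2 fold change of -0.26 (SE 0.21, 95% interval -0.72 to 0.19, edgeR adjusted p = 0.691). Counting alone would give a coefficient of variation of 2.89% in WT and 3.37% in cD2KO, and 18.0% and 17.2% were measured, so the spread between mice and not the depth set the precision. The sign stayed below 0 without each mouse, from -0.39 to -0.12. Hes1 also answers to stimuli other than Notch, and of 12 genes on a list of those induced at once by dissociation of tissue, 7 passed an unadjusted p under 0.05 on the lower side in cD2KO and none on the higher side. Over all genes tested, 6.62% were lower at that level. With single mice left out, Fos, Jun, Egr1, Ier2 and Hspa1b passed in 3 of 6 fits, Junb in 2 and Dusp1 in 5. The sums of the 12 genes were 5190, 13510 and 7671 CPM in WT and 4659, 6742 and 5471 CPM in cD2KO mice, overlapping between the groups. The WT mouse c129 had by far the highest sum and a Hes1 level, 379.7 CPM, close to that of the cD2KO mouse fl126, 376 CPM. The part of this response in the Hes1 values was not tested.

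Heyl (ENSMUSG00000032744, chromosome 4 from 123233556 to 123249875) and Hey1 (ENSMUSG00000040289, chromosome 3 from 8663359 to 8667256) are the Hey genes tied to Notch in muscle stem cells. Heyl was at 234, 151 and 214 CPM in WT and 189, 207 and 229 CPM in cD2KO mice. The lowest and the highest mouse were both WT, and the cD2KO mice lay between them. Means of 199.6 ± 43.0 and 208 ± 19.8 CPM (± SD, n = 3 per group) gave a log2 fold change of 0.06 (SE 0.21, 95% interval -0.39 to 0.50, edgeR adjusted p = 0.951). The interval leaves out a lowering of Heyl to under 0.763 of the WT level and a rise to over 1.42 of it. Heyl is also expressed by mural cells of vessels. Of 11 mural markers 6 were higher in cD2KO at an unadjusted p under 0.05, where 5.34% of all genes tested were. The other 5 did not pass. Their log2 fold changes were 0.003 for Rgs5, -0.36 for Kcnj8, -0.23 for Abcc9, -0.06 for Pdgfrb and 0.25 for Cspg4. The mural sums did not overlap. Large parts of them were Acta2 (1559 to 3959 CPM in WT, 4421 to 7901 CPM in cD2KO) and Myh11 (1984 to 2432 and 3092 to 6098 CPM). The lowest mural sum, 5719 CPM, and the lowest Heyl level were both in c129. The highest Heyl level was in c124, whose mural sum, 9672 CPM, lay below those of all cD2KO mice. The part of mural RNA in the Heyl values was not tested.

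Hey1 was at 43.8, 52.3 and 72.7 CPM in WT and 37.2, 43.5 and 45.9 CPM in cD2KO mice. The cD2KO mice fl125 and fl126 lay under all WT mice and fl128 above c124. Its log2 fold change was -0.41 (SE 0.25, 95% interval -0.94 to 0.11, edgeR adjusted p = 0.545), and -0.19 without c130. Hey1 is known in endothelial cells as well, and of 11 endothelial markers tested 6 passed an unadjusted p under 0.05, all lower. Over all genes tested, 6.62% were lower at that level. The other endothelial markers tested did not pass. Their log2 fold changes were 0.32 for Esam, 0.04 for Tek, -0.06 for Eng, -0.11 for Vwf and -0.81 for Emcn. Esam was higher in all cD2KO than in all WT mice. Ordered from low to high, the 6 mice stood in the same order by Hey1 and by the sum of the 12 endothelial markers, from 251 CPM in the library labelled fl125 to 431 CPM in c130. Esam was the highest marker in this sum in each mouse, with 145 of the 251 CPM in the library labelled fl125. The level of the sum thus rested in large part on a marker that was not lower in cD2KO. The shared order was not looked at without Esam. It was noticed after the values were seen, and the part of endothelial RNA in the Hey1 values was not tested. Hey2 (ENSMUSG00000019789, chromosome 10 from 30832359 to 30842801), the Hey gene of arteries and heart, was at 14.1, 6.63 and 10.7 CPM in WT and 4.99, 9.92 and 20.7 CPM in cD2KO mice. Both the lowest and the highest mouse were cD2KO. Its log2 fold change of 0.19 had a 95% interval from -0.89 to 1.26 and became -0.48 without fl128.

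**Figure D2:**
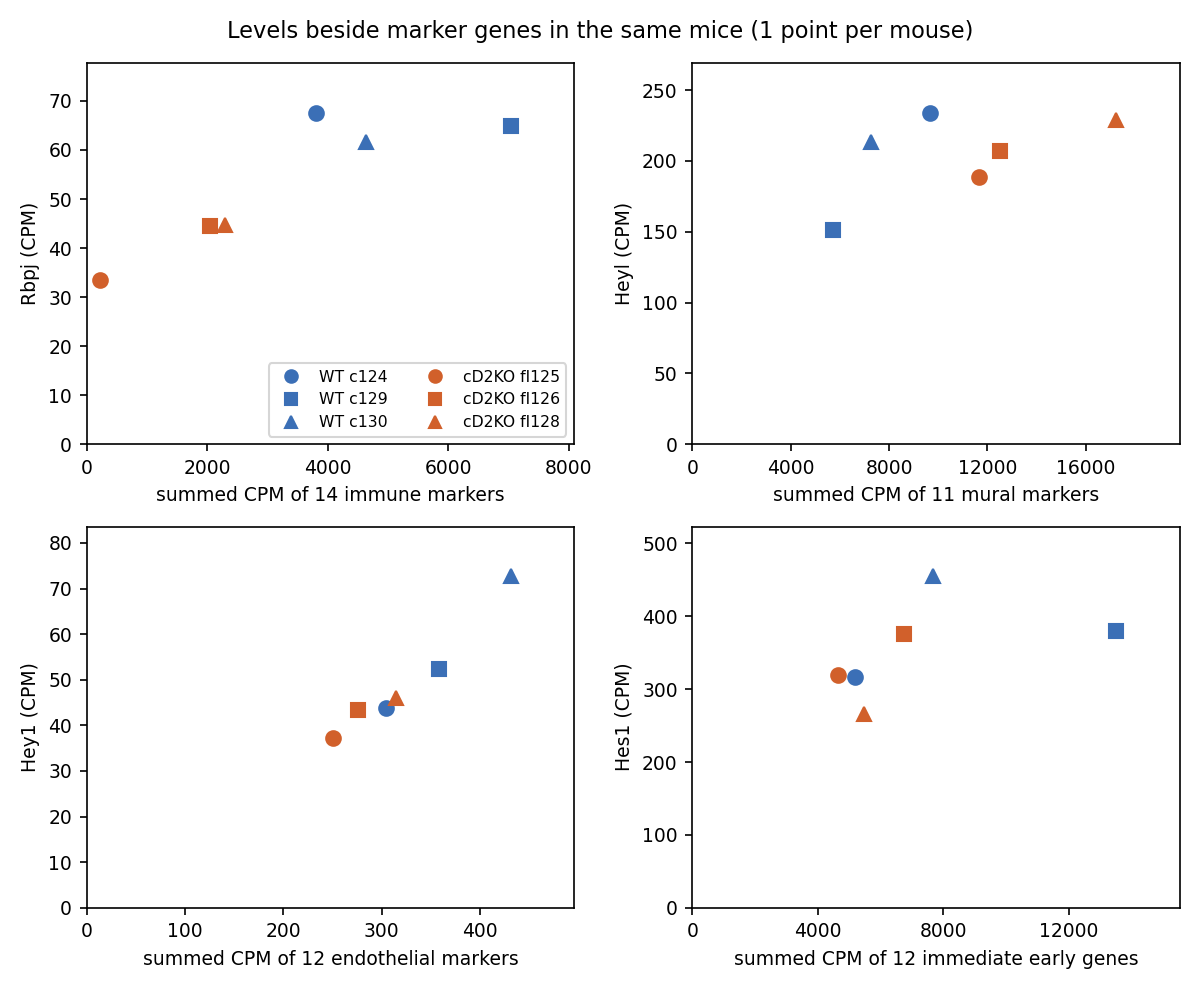
CPM of Rbpj, Heyl, Hey1 and Hes1 (vertical axes) against the summed CPM of immune markers, mural markers, endothelial markers and immediate early genes (horizontal axes) in the same 6 mice, a point per mouse. Hey1 and the endothelial sum put the mice in the same order, from 37.2 to 72.7 CPM of Hey1, but not when Esam is taken out of the sum. In the panel of Rbpj the cD2KO mice lie lower than the WT mice on both axes.

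Hes6 (ENSMUSG00000067071, chromosome 1 from 91411483 to 91414038) differs from Hes1 in that it is known to oppose it and to accompany differentiation. It was at 27.9, 28.7 and 39.8 CPM in WT and 22.2, 36.3 and 43.1 CPM in cD2KO mice, with the lowest and the highest mouse both cD2KO. The log2 fold change was 0.08 (95% interval -0.55 to 0.72), and -0.13 without fl128. Nrarp (ENSMUSG00000078202, chromosome 2 from 25180758 to 25183339), a small ankyrin repeat protein that Notch induces and that restrains Notch in turn, was at 32.8, 14.7 and 30.8 CPM in WT and 43.1, 35.6 and 28.6 CPM in cD2KO mice. The WT mouse c129 stood low, and fl128 lay under c124 and c130. The log2 fold change of Nrarp was 0.44 (SE 0.32, 95% interval -0.25 to 1.13, edgeR adjusted p = 0.647), and 0.18 without c129. Of its 2582 exon bases, 2051 are shared with Gm38287 on the opposite strand, which had 2 counts in fl126 and 0 in the other mice. Where strand was not used, reads there could be split or dropped, so the Nrarp counts are uncertain.

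The 5 Hes and Hey genes together summed to 637, 619 and 792 CPM in WT and 573, 672 and 604 CPM in cD2KO mice, overlapping between the groups, with means of 682 ± 95.05 and 616 ± 51.0 CPM (± SD, n = 3 per group). Hes1 made up 44.0% to 61.4% of this sum per mouse and Heyl 24.5% to 37.8%. With Nrarp in place of Hes6, which is known to oppose Hes1, the sums overlapped as well. They were 642, 605 and 783 CPM in WT and 594, 672 and 589 CPM in cD2KO mice. Of all 10 genes, 9 overlapped between the groups and 1, Rbpj, did not, where 18.1% of all genes tested did not overlap. Of the 10 log2 fold changes 6 were above 0 and 4 below, with a median of 0.07 beside -0.02 over all genes tested. The output genes therefore included both signs, with Nrarp on the higher side and Hes1 and Hey1 on the lower, all 3 with intervals that include 0. A p over the threshold does not show that levels were equal. The half-width of the 95% interval was 0.45 to 0.69 in 7 of the 9 genes that did not pass, and 1.07 for Hey2 and 1.39 for Maml1.

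**Figure D3:**
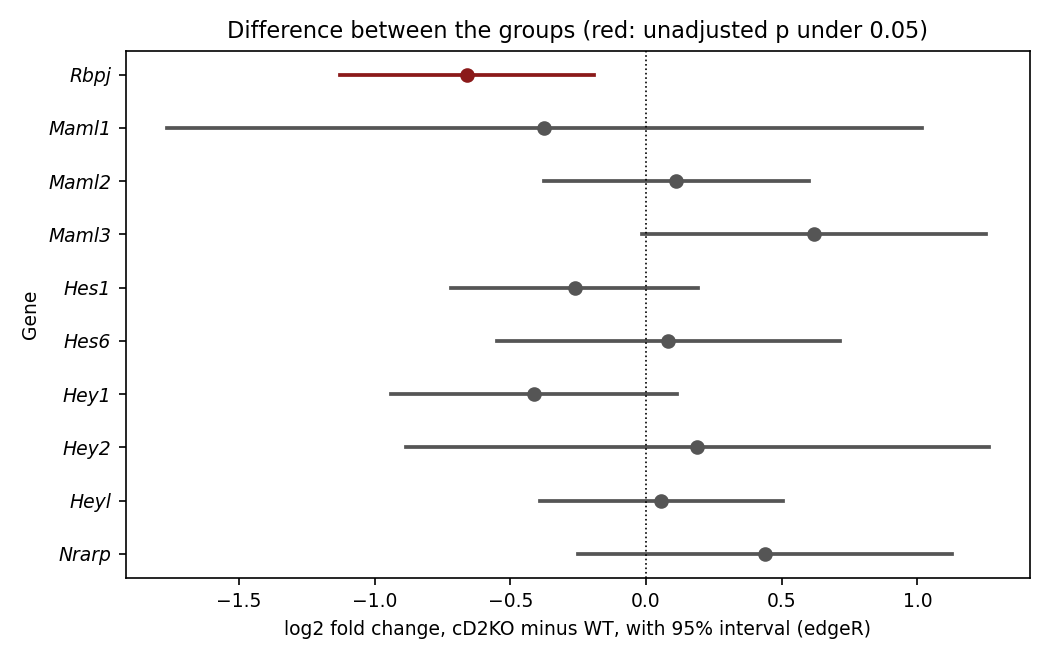
Log2 fold change of each of the 10 genes, cD2KO minus WT (horizontal axis), with its 95% interval from edgeR's fit over all genes and 6 mice. The interval of Rbpj, from -1.13 to -0.19, lies below 0, and the other 9 intervals include 0, those of Maml1 and Hey2 being the widest.

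Without the library labelled fl125, Rbpj remained at an unadjusted p under 0.05, and the log2 fold changes of the other 9 genes were 0.03 for Maml1, 0.31 for Maml2, 0.34 for Maml3, -0.22 for Hes1, 0.34 for Hes6, -0.29 for Hey1, 0.57 for Hey2, 0.16 for Heyl and 0.32 for Nrarp, with unadjusted p of 0.185 or more in edgeR's test. Of the 10 genes, 4 changed sign when some mouse was left out, namely Maml1, Hes6, Hey2 and Heyl. The other 6 kept their sign in all 6 such fits.

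**Figure D4:**
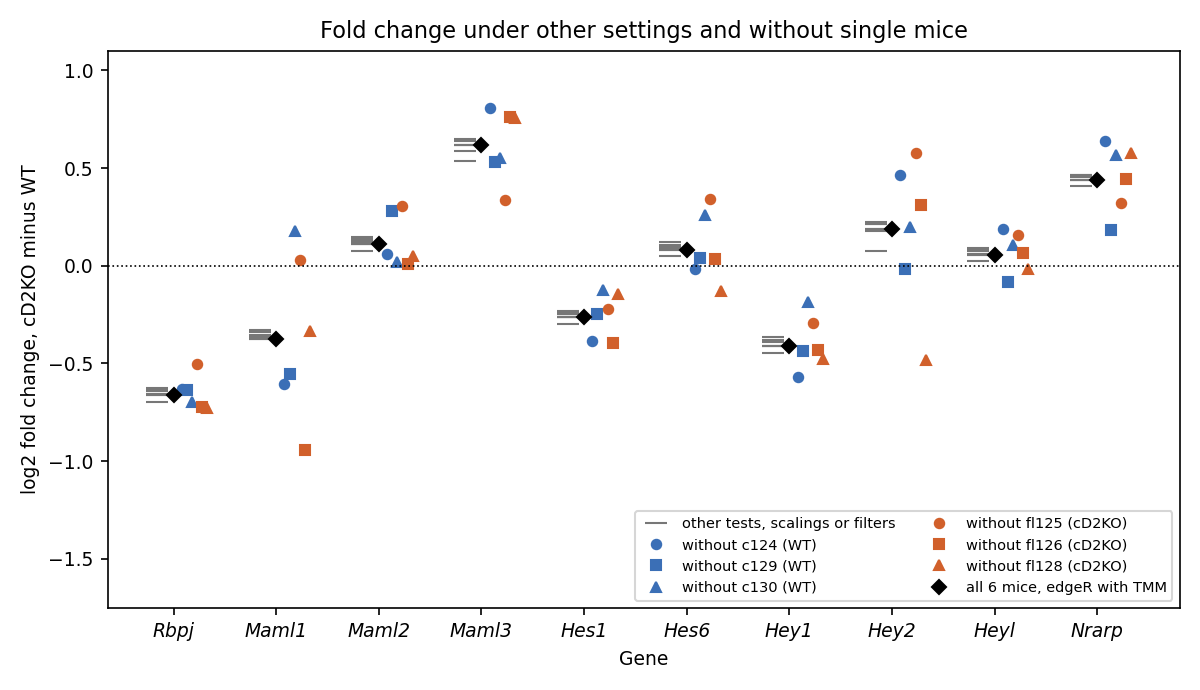
Log2 fold change of each gene, cD2KO minus WT (vertical axis), in the fit to all mice (black diamonds), under other tests, scalings and filters (grey dashes) and without each mouse (colored points, colored by the group of the mouse left out). Rbpj stays between -0.73 and -0.50 over all of these, while Maml1, Hes6, Hey2 and Heyl cross 0 without some mouse.

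Levels of different genes were compared per kilobase of annotated exon, over all 6 mice. This holds only if reads covered whole transcripts, which is not given in the sources used here. Hes1 was highest at 173 ± 32.3 CPM per kilobase and Heyl next at 39.9 ± 5.93 (SD, n = 6 mice). Hes6 at 18.3 ± 4.42, Hey1 at 15.1 ± 3.83, Nrarp at 12.0 ± 3.63 and Maml2 at 9.71 ± 1.68 CPM per kilobase followed, each within the spread of its neighbour in this order. Rbpj at 4.14 ± 1.08, Maml3 at 3.38 ± 1.27 and Hey2 at 2.43 ± 1.23 CPM per kilobase came next and likewise ran into each other. Maml1 came last at 1.03 ± 0.579 CPM per kilobase and lay below Hey2 in each mouse. The level of Rbpj depended on the length used, being 9.62 CPM per kilobase of its longest transcript (5485 bases, against 12750 bases of all its exons), and then lay close to Maml2.

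The pattern of Rbpj over the 6 mice, in log2 CPM, was most like that of Gpr34, a G protein-coupled receptor, Gm26740 and Snx2, a sorting nexin, with Pearson's r of 0.994, 0.994 and 0.993. For Hes1 the most alike were Abcf3, Cct2, a chaperonin subunit, and Pon3, with r of 0.981, 0.978 and 0.978, and for Heyl Vapb, Pmp22, a protein of peripheral myelin, and 2310061I04Rik, with r of 0.992, 0.991 and 0.983. With 6 mice and 11633 genes such values are frequent, and 80 genes had r above 0.95 with Rbpj. Between the 10 genes themselves r ran from -0.83 (Rbpj and Maml3) to 0.79 (Maml1 and Hes6), with a median of 0.10 over the 45 pairs, 25 of them above 0. All these points share their libraries.

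The wider pathway was followed in 7 lists written by hand, with 86 genes, of which 72 passed the minimum. At an unadjusted p under 0.05, 2 of the 72 were higher and 4 lower in cD2KO, or 8.33%, where 12.0% of all genes tested differed, and the median log2 fold change was -0.07. Of the close relatives that the Notch pathway drives elsewhere, Hes2 had 1 count in all 6 mice, Hes3 and Helt 0 and Hes5 3. A count of 0 allows up to 0.768 to 1.36 CPM per library. Hes7 had 0, 18 and 11 counts in WT and 1, 2 and 0 in the cD2KO mice (two-sided exact permutation test of CPM, p = 0.4), and Rbpjl, the pancreatic relative of Rbpj, 0, 3 and 1 in WT and 8, 0 and 0 in cD2KO mice. These 6 relatives fell under the minimum. The other 2, Bhlhe40 and Bhlhe41, were tested and did not pass, with log2 fold changes of -0.53 and -0.28.

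Of the 4 receptors, Notch2 was lower, at 61.2, 41.6 and 59.9 CPM in WT and 25.8, 26.0 and 25.1 CPM in cD2KO mice, the groups not overlapping (log2 fold change -1.08, SE 0.25, edgeR adjusted p = 0.0997). Notch3, which mural cells also express, was higher, at 722, 459 and 729 CPM in WT and 802, 1055 and 1352 CPM in cD2KO mice, again without overlap (log2 fold change 0.75, SE 0.25, edgeR adjusted p = 0.216). The receptors Notch1 and Notch4 did not pass, at 0.03 and -1.01 on the log2 scale (edgeR adjusted p = 0.977 and 0.525). Notch2 and Notch3 kept an unadjusted p under 0.05 without each mouse, and Notch3 was at 0.95 without the library labelled fl125 (edgeR adjusted p = 0.0428). The part of mural RNA in the Notch3 values was not tested. Upstream of the receptors, of 25 genes for ligands and receptor processing tested, Neurl1a, a ligand ubiquitin ligase, was higher, with a log2 fold change of 0.61, and Mfng, a Fringe glycosyltransferase, lower, with a log2 fold change of -2.37 (edgeR adjusted p = 0.387 and 0.315). With single mice left out, Neurl1a kept an unadjusted p under 0.05 in 2 of 6 fits and Mfng in 2 of the 3 in which it met the minimum. Mfng had only 0, 1 and 9 counts in cD2KO mice, and its log2 fold change was -1.84 without the library labelled fl125, -1.95 without fl126, -4.70 without fl128 and -3.03 with limma voom. The median log2 fold change was -1.24 for the endothelial and -1.88 for the immune markers tested, beside -0.02 over all genes tested. The part of endothelial or immune RNA in the Notch2, Notch4 and Mfng values was not tested.

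In the nucleus, of 11 coactivators and turnover factors Cdk8, a kinase that marks the Notch domain for degradation, was lower with a log2 fold change of -1.25 (SE 0.49, edgeR adjusted p = 0.338), from 10.5, 18.8 and 20.1 CPM in WT to 11.8, 6.16 and 3.14 CPM in cD2KO mice, the groups overlapping, and it kept an unadjusted p under 0.05 in 2 of 6 fits without a mouse. Of 16 RBPJ corepressors tested, Ctbp2 was lower, with a log2 fold change of -0.48 (SE 0.22, edgeR adjusted p = 0.404), a gene named after its values were seen, and it passed in 1 of 6 fits without a mouse. None of the 6 Groucho corepressors that Hes and Hey proteins recruit and none of the 8 other Notch-responsive genes tested passed by edgeR. The latter included Col5a1, Col5a3, Col6a1 and Col6a2, collagens of the niche, with log2 fold changes of -0.07, 0.05, -0.15 and -0.14. Of the 7 myogenic genes, Myf5 had a log2 fold change of 0.59 (edgeR adjusted p = 0.399) and passed at the unadjusted level, but in only 2 of the 6 fits without a mouse, those without c129 or fl128. It was at 0.43 without the library labelled fl125 and passed neither with the DESeq2 Wald test, nor with limma voom, nor with a minimum mean of 50. The other 6 did not pass. Among the genes listed as checks, Dusp1, an immediate early phosphatase, had a log2 fold change of -0.78 (-0.45 and no longer passing without c129) and the Y-linked Eif2s3y one of -1.56 (edgeR adjusted p = 0.227 and 0.0885).

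**Figure D5:**
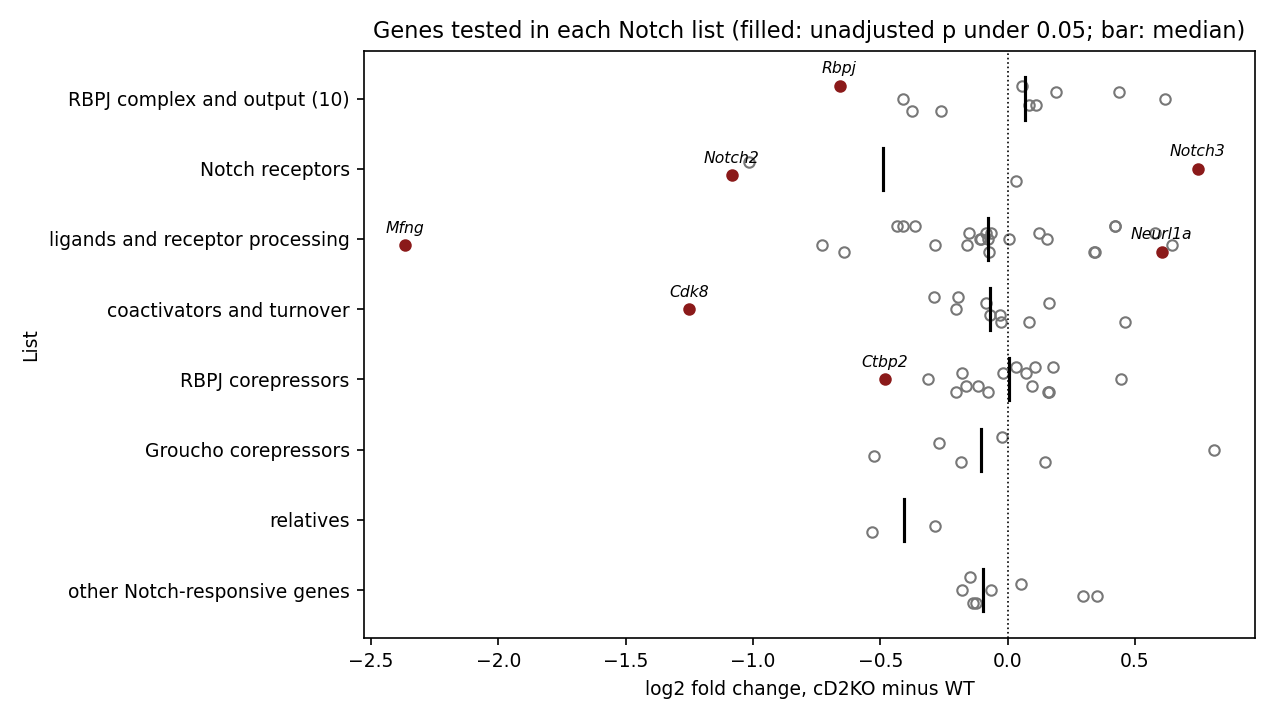
Log2 fold changes, cD2KO minus WT (horizontal axis), of the genes tested in the group of 10 and in 7 other Notch lists, a circle per gene and a bar at each median, with genes at an unadjusted p under 0.05 filled and named. Rbpj, Notch2, Mfng, Cdk8 and Ctbp2 lie on the lower side and Notch3 and Neurl1a on the higher side.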

How the data were processed

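RNA of qMuSCs from 3 WT and 3 cD2KO mice was sequenced, and the authors aligned reads to mm10 with STAR and deposited unnormalized gene counts. The submitters' processing notes name STAR 2.6.0a, HTSeq 0.9.1 and bcl2fastq. Annotation, strand and duplicate removal are not given in the sources used here. Symbols, coordinates and exon lengths came from GENCODE M21 (mm10), which held 31011 of the 31053 identifiers, and promoters from RefSeq (GRCm38.p6). The 2 annotated Rbpj pseudogenes were not used here.

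The counts were normalized with DESeq2 size factors, and genes whose average exceeded 10 were fitted with TMM factors and edgeR 4.0.16 (R 4.3.3, quasi-likelihood, robust, no covariate), with Benjamini-Hochberg adjustment across 11633 genes. A call is an unadjusted p under 0.05, the threshold of the paper. Intervals are 95%. Log2 CPM used a prior count of 2. As alternatives, DESeq2 1.42.0 (Wald test) and limma 3.58.1 (voom) were run, as were other scalings, filters and estimation, single mice left out, an adjusted p under 0.1, and the longest transcript as length. The fit was tested on simulated data.

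The 10 genes and all lists were chosen with earlier results of these data known. Besides the 10, the receptors, relatives of the 10, and up to 5 listed genes per direction with the smallest p under 0.05 were named, and the 3 genes most like Rbpj, Hes1 and Heyl by Pearson's r over mice. The labels do not say that mice were separate litters, so p-values measure the spread between these 6 libraries. No 2 libraries agreed within sampling noise (lowest chi-square per degree of freedom 8.24).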

Additional observations from a re-analysis of the deposited data

How the results depend on the processing

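Rbpj was lower at an unadjusted p under 0.05 under all 8 other tests, scalings, filters and estimations, with log2 fold changes from -0.69 to -0.62 and adjusted p from 0.172 to 0.305, and without each mouse. At an adjusted p under 0.1 the count of the 10 genes called was 0 lower. The count of the 10 genes called higher was 1, Maml3, with DESeq2 size factors in edgeR and with no minimum on the mean, and without single mice it was 0 to 1 (1 lower throughout). Without single mice Maml1 ran from -0.94 to 0.18, Hes6 from -0.13 to 0.34, Hey2 from -0.48 to 0.57 and Heyl from -0.084 to 0.19. Signs turned to 0.18 without c130 and 0.03 without fl125 in Maml1, to -0.01 without c124 and -0.13 without fl128 in Hes6, to -0.02 without c129 and -0.48 without fl128 in Hey2, and to -0.084 without c129 and -0.02 without fl128 in Heyl. Notch1 was at -0.055 with limma voom and from -0.29 (without fl125) to 0.19 without single mice. Over all genes, 939 of 18040 tested were higher with no minimum on the mean, and 505 of 7353 tested were lower with a minimum mean of 50. In the main fit 621 were higher and 770 lower of 11633 tested. At an adjusted p under 0.1 the counts were 33 higher, 57 lower. Without single mice, from 402 (without fl128) to 933 (without fl125) were higher and from 399 (without c129) to 874 lower. In the wider Notch lists the count higher was 1 with the DESeq2 Wald test, 5 with no minimum (83 genes tested) and 0 at an adjusted p under 0.1. The count lower was 2 with a minimum mean of 50 (61 genes tested) and 1 at an adjusted p under 0.1. Without single mice, 2 to 5 were higher and 1 to 7 lower, both upper values without fl125, with 1 lower without c129 or fl126 and 2 without c130. Per length of the longest transcript, Rbpj, Hes1, Hey1 and Hey2 moved to 9.62, 239.9, 20.3 and 4.39 CPM per kilobase. The causes of these changes were not tested. Under other minimums the number of genes tested differed as well. No paired analysis was possible because the labels give the groups no shared numbers. Maml1 and Hey2 had the lowest mean normalized counts of the 10 genes, 16.5 and 32.3, but varied between mice by more than counting alone gives, and depth limits what can be said of the relatives near 0.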
